A study of Homo sapiens with 6 samples.

Results

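Genes of haem breakdown, iron storage and uptake, and antioxidant defence under the transcription factor NRF2 were followed by RNA sequencing in MOLM-13, a human acute myeloid leukaemia cell line that carries the MLL-AF9 translocation. The set was chosen by name and holds 10 genes: HMOX1, the ferritin subunits FTH1 and FTL, the transferrin receptor TFRC, and the NRF2 targets NQO1, GCLM, GCLC, TXNRD1, SRXN1 and OSGIN1. Of these, 9 were matched to a row among the 39771 rows of the deposited table and all 9 were tested among 13072 genes; SRXN1, the sulfiredoxin gene, was not matched and was not analysed here. The cells carried a lentiviral hairpin against LAMP5 (shLAMP5, 4 libraries), a lysosome-associated membrane protein, or a non-targeting hairpin (shNT, 2 libraries). All cells of either group were transduced with a lentivirus, selected with puromycin and grown in medium with serum. The labels speak of several harvest times without giving the time or the hairpin of a library, so the spread within a group may hold such differences. They do not say that libraries came from separate cultures either, so a p-value measures how far these libraries differ, a spread that may be technical. The values were read as TPM, a share of all transcripts that takes transcript length into account, and the read depth is unknown.

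NRF2, the product of NFE2L2, is held in the cytoplasm by KEAP1 and degraded. Oxidants and electrophiles release it, and with a small MAF partner it binds antioxidant response elements in front of genes for glutathione synthesis, thioredoxin reduction and quinone detoxification. BACH1 occupies many of the same elements as a repressor and leaves them when it binds haem, and HMOX1 is the gene best known for this control. Iron itself is regulated after transcription: the iron regulatory proteins, made from ACO1 and IREB2, bind a stem-loop called the iron-responsive element, which blocks translation when it lies before the coding sequence (ferritin) and protects the RNA from decay when it lies after it (TFRC). Monocytes and macrophages are known for high levels of haem oxygenase and ferritin, whereas dividing cells carry many transferrin receptors.

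The iron-responsive elements of the members are shown because they mark the 3 genes of iron storage and uptake apart from the rest. They were read from 1 GENCODE 29 transcript a gene (GRCh38), with the bulged C and the 6-base loop in capitals and 25 bases printed. FTH1 and FTL each held 1 match before the coding sequence, with its bulged C at base 65 and 41 of the transcript, and TFRC held 4 after it, at bases 941, 1345, 1410 and 1457 of the untranslated region.
FTH1 (chr11:61967576-61967600, minus strand): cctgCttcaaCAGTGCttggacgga
FTL (chr19:48965337-48965361, plus strand): cttgCttcaaCAGTGTttggacgga
TFRC, base 941 (chr3:196050981-196051005, minus strand): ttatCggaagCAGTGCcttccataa
TFRC, base 1345 (chr3:196050577-196050601, minus strand): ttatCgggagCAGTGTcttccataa
TFRC, base 1410 (chr3:196050512-196050536, minus strand): gtatCggagaCAGTGAtctccatat
TFRC, base 1457 (chr3:196050465-196050489, minus strand): ttatCgggaaCAGTGTttcccataa
The search asked for C, 5 bases, CAGTG and any base, then 5 bases that pair with the first 5 (G-T pairs allowed), on the transcript strand. A match was present in 6 of 11522 genes within the first 150 bases of 5′ untranslated regions at least that long (0.0521%), and 3 or more matches in 2 of 5362 genes within the first 2000 bases of 3′ untranslated regions at least that long (0.0373%). HMOX1, NQO1, GCLM, GCLC, TXNRD1 and OSGIN1 held no match in the transcript read. The pattern is strict and would miss an element of another form, so the counts, that of TFRC included, may be incomplete.

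The core of the antioxidant response element, the sequence that NRF2 binds, was searched in the RefSeq promoters (GRCh38.p14, 250 bases before to 50 after the start) of the 8 members listed there; HMOX1 and FTH1 are not among them. The letters TGANNNNGC, on either strand, occurred in 4 of the 8 (GCLM, NQO1, OSGIN1 and TXNRD1) and in 41.8% of 35116 promoters. Members are counted by gene, with a match in any promoter of the gene, and the share is over single promoters. A gene with more than 1 promoter, such as TXNRD1, has more chances to match, so the counts are not in like units. The narrower forms TGACNNNGC or TGAGNNNGC, which are part of the same match, occurred in the same 4 and in 29.1% of promoters. Shown here, with the match in capitals, are the sites of OSGIN1, a member whose groups did not overlap, and of GCLM, a member whose groups did; only the narrower form is shown, and all 3 matches lie on the strand opposite to the gene, so the core is read as its reverse complement.
OSGIN1, from 99 bases before the start (chr16:83953131-83953159, plus-strand gene): acgggcccctGCTGACTCAcgcttatgaa
GCLM, from 34 bases before the start (chr1:93909446-93909474, minus-strand gene): tacgatttctGCTTAGTCAttgtcttcca
GCLM, from 8 bases before the start (chr1:93909420-93909448, minus-strand gene): ccaggaaacaGCTCCCTCAgtttggaatc
A match describes letters in this window and shows no binding.

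LAMP5, the target of the hairpin, was lower in every shLAMP5 library. It had 80.6, 65.6, 68.8 and 86.7 TPM in shLAMP5 1 to 4, against 170 and 282 TPM in shNT 1 and 2 (log2 fold change -1.54, limma adjusted p 0.252). No gene of the 13072 tested passed a limma adjusted p of 0.05, either higher (0%) or lower (0%) in shLAMP5. At an unadjusted limma p under 0.05, 486 genes were higher (3.72%) and 686 lower (5.25%). The whole shLAMP5 group lay above the whole shNT group for 8.25% of genes (1079) and below it for 13.5% (1771); these counts were 2870 and 2189 without shLAMP5 2, 2369 and 3296 without shNT 1, and 2056 and 2538 without shNT 2. Libraries of a group differed among themselves. Spearman correlations across genes, which are not independent replicates, were 0.928 to 0.942 between shLAMP5 2 and the other shLAMP5 libraries. With shNT 1 that library had a correlation of 0.957, and with shNT 2 one of 0.924. Markers of erythroid cells were near 0 (12 of 13 under 1 TPM in every library, 4 of them at 0 throughout; sum 3.78 to 6.46 TPM in shLAMP5 and 5.08 to 6.83 TPM in shNT), as were 6 of 8 T and B cell markers (sum 3.02 to 10.4 TPM in shLAMP5 and 2.95 to 4.87 TPM in shNT). Fibroblast and epithelial markers, 5 of 8 under 1 TPM throughout, summed to 26.8 to 38.2 TPM in shLAMP5 and 29.2 to 31.6 TPM in shNT, while all 8 myeloid leukaemia markers, CD33, SPI1 and FLT3 among them, were tested and summed to 516 to 930 TPM in shLAMP5 and 558 to 586 TPM in shNT.

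**Figure D1:**
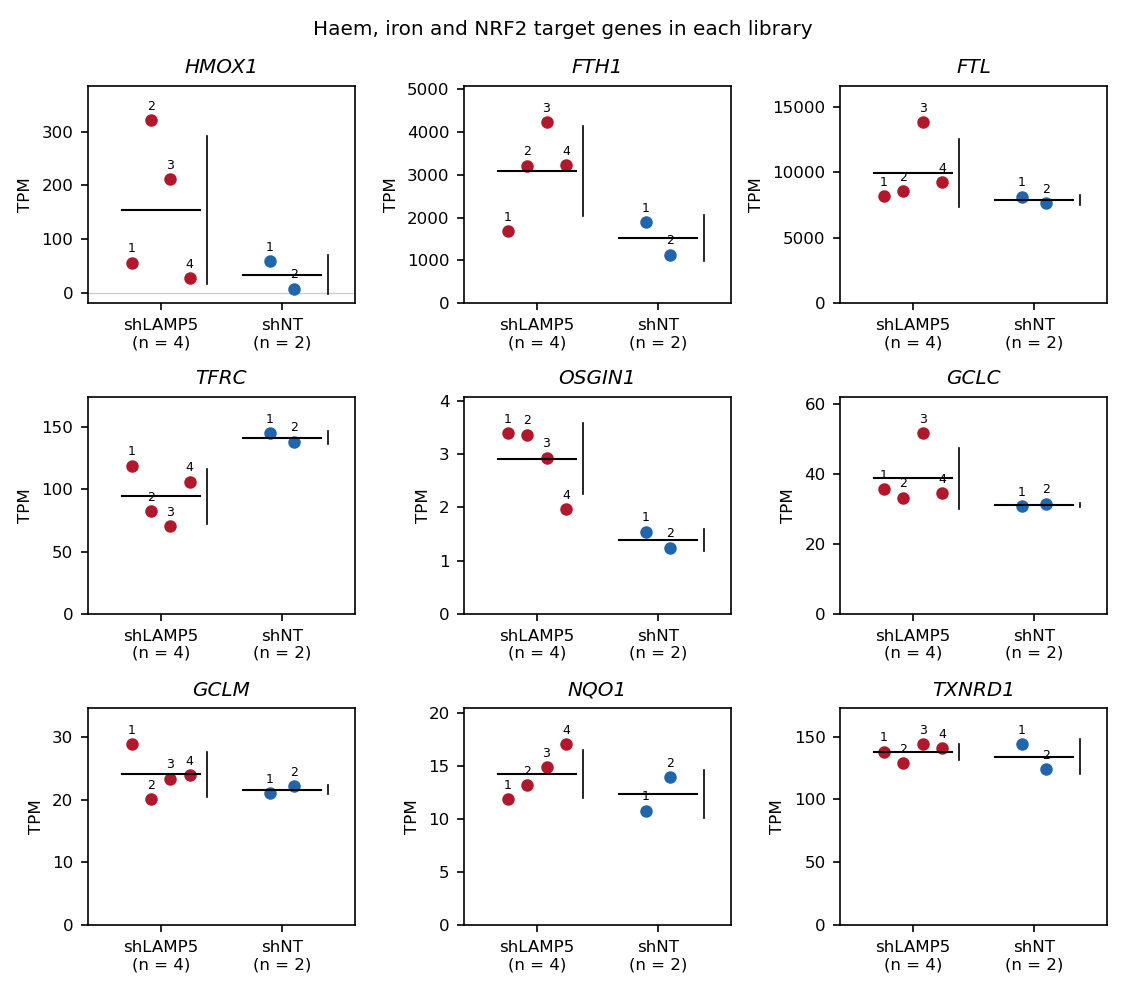
Level of each of the 9 genes in TPM (linear axes from 0) in the 4 shLAMP5 libraries (red, left) and the 2 shNT libraries (blue, right). Numbers give the library, horizontal bars the group mean and vertical bars 1 SD. HMOX1 is spread over 27.6 to 321 TPM in shLAMP5 and 7.89 to 59.2 TPM in shNT, whereas TFRC lies lower in all 4 shLAMP5 libraries and OSGIN1 higher.

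Against these backgrounds, none of the 9 members passed the adjusted threshold. At an unadjusted limma p under 0.05, OSGIN1 and FTH1 had higher and TFRC lower values in shLAMP5. OSGIN1, GCLC and FTL had every shLAMP5 value above every shNT value (3 of 9) and TFRC every one below (1 of 9); HMOX1, FTH1, NQO1, GCLM and TXNRD1 overlapped between the groups. The median log2 fold change of the 9 was 0.29, beside -0.006 over all genes tested. The members were chosen with results of these data known, so these counts are a description. They rest on single shNT libraries: without shNT 1, 6 members lay above and 1 below, and without shNT 2, 4 lay above, 2 below and 0 had an unadjusted p under 0.05.

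HMOX1 (ENSG00000100292), the inducible haem oxygenase that opens the haem ring to biliverdin, carbon monoxide and free iron, varied more than almost any other gene. It had 55.8, 321, 212 and 27.6 TPM in shLAMP5 1 to 4, against 59.2 and 7.89 TPM in shNT 1 and 2. Libraries shLAMP5 2 and 3 stood far above all others, and shLAMP5 1 and 4 lay within the range of the shNT libraries. The means were 154 ± 138 TPM in shLAMP5 (SD, n = 4) and 33.6 ± 36.3 TPM in shNT (SD, n = 2), a 4.6-fold ratio, while libraries differed up to 11.6-fold within shLAMP5 and 7.5-fold within shNT. On the log2(TPM + 1) scale the difference was 2.15 (SE 1.07, 95% interval -0.32 to 4.62), at a limma adjusted p of 0.591 and an exact two-sided permutation p of 0.267, where 15 divisions of the libraries allow no p below 0.0667. It was 0.77 without shNT 2, 3.53 without shNT 1 and 0.95 with library weights. The SD within groups on the log2 scale was 1.72, larger than in 99.8% of genes tested, whose median was 0.294. The difference between shLAMP5 and shNT was smaller than the range within either group.

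The 4 genes whose pattern over the 6 libraries was most like that of HMOX1, among 6915 other named genes with a mean of at least 10 TPM, were FAM3C2P, PLIN2, RELB and SEL1L, with Pearson correlations of log2(TPM + 1) of 0.994, 0.988, 0.987 and 0.985. PLIN2 encodes a lipid droplet coat protein, RELB a subunit of NF-kB, and SEL1L an adaptor that draws misfolded proteins out of the endoplasmic reticulum; FAM3C2P is a pseudogene, whose reads may come from its parent gene. PLIN2 had 53.4, 106, 96.5 and 50.7 TPM in shLAMP5 1 to 4, against 55.5 and 28.5 TPM in shNT 1 and 2. Its high libraries were shLAMP5 2 and 3 and its lowest shNT 2, as for HMOX1. With 6 libraries and 6915 genes compared, correlations of this size are a ranking and no test. The points of all genes share the same 6 libraries.

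FTH1 (ENSG00000167996), the ferritin heavy chain that oxidises iron as it enters the shell, was among the most abundant RNAs of the cell, at rank 48 of all rows by mean in shLAMP5 and 109 in shNT. It had 1676, 3215, 4230 and 3217 TPM in shLAMP5 1 to 4, against 1894 and 1134 TPM in shNT 1 and 2. Libraries shLAMP5 2, 3 and 4 lay above both shNT libraries, while shLAMP5 1 lay between them. The means were 3085 ± 1054 TPM (SD, n = 4) in shLAMP5 and 1514 ± 537 TPM (SD, n = 2) in shNT, with a log2 fold change of 1.00 (SE 0.37, 95% interval 0.15 to 1.84, limma p 0.0264, adjusted p 0.524). The exact permutation p was 0.267. The fold change was 0.63 without shNT 2 and 1.37 without shNT 1.

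FTL (ENSG00000087086), the light chain that helps the iron core to form, had 8194, 8581, 13845 and 9253 TPM in shLAMP5 1 to 4, against 8131 and 7620 TPM in shNT 1 and 2. The groups did not overlap, though shLAMP5 1 exceeded shNT 1 by little, and shLAMP5 3 stood above the other 3. The groups did overlap after median scaling and after quantile normalization of the libraries. The log2 difference between the groups was 0.31 (SE 0.22, 95% interval -0.19 to 0.81, limma adjusted p 0.694). It was 0.14 without shLAMP5 3 and 0.04 with quantile normalization (limma p 0.851). FTL took 0.898% to 1.53% of the summed TPM of each shLAMP5 library and 0.837% to 0.899% of each shNT library.

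FTL exceeded FTH1 in every library, and the excess was smaller in 3 of the 4 shLAMP5 libraries. The ratio of FTL to FTH1 in TPM, a level per length, was 4.89, 2.67, 3.27 and 2.88 in shLAMP5 1 to 4, against 4.29 and 6.72 in shNT 1 and 2. Libraries shLAMP5 2 to 4 lay below both shNT libraries and shLAMP5 1 between them. Both ferritin genes have many processed pseudogenes, to which reads may be assigned. The 25 rows named as FTH1 pseudogenes summed to 0.235% to 0.583% of the total of gene and pseudogenes in shLAMP5 and 0.363% to 0.423% in shNT, and the 12 FTL pseudogene rows to at most 0.0597% in any library. With these rows added to their genes, the log2 fold changes were 1.00 for FTH1 and 0.31 for FTL.

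TFRC (ENSG00000072274), the receptor that takes up iron-loaded transferrin, was the 1 member lower in every shLAMP5 library. It had 119, 82.6, 70.2 and 106 TPM in shLAMP5 1 to 4, against 145 and 138 TPM in shNT 1 and 2. The groups did not overlap, and shLAMP5 3, the library with the most FTH1 and FTL RNA, had the least TFRC. The means were 94.2 ± 21.9 TPM in shLAMP5 (SD, n = 4) and 142 ± 4.56 TPM in shNT (SD, n = 2), a ratio of means of 0.665. Its log2 fold change of -0.61 (SE 0.24, 95% interval -1.18 to -0.05) had a limma p of 0.0364, an adjusted p of 0.534 and an exact permutation p of 0.133. It was between -0.73 and -0.48 when any 1 library was left out.

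Set against the heavy chain, the receptor was 0.0708, 0.0257, 0.0166 and 0.0328 times as abundant in shLAMP5 1 to 4, against 0.0765 and 0.122 times in shNT 1 and 2. All 4 shLAMP5 ratios of TFRC to FTH1 were below both shNT ratios, with shLAMP5 1 close to shNT 1. This ratio was given no test. The libraries with little TFRC also had low levels of proliferation genes: the mean log2(TPM + 1) of 14 such genes was 5.70, 5.41, 4.84 and 5.44 in shLAMP5 1 to 4, against 6.43 and 6.40 in shNT 1 and 2. All 14 genes had every shLAMP5 value below both shNT values (13.5% over all genes tested). AURKA, a mitotic kinase, differed by -1.05 (log2, limma adjusted p 0.366) and TOP2A, a topoisomerase of dividing cells, -1.35 (adjusted p 0.387). The part of cell division in the TFRC value was not tested.

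The genes most like TFRC over the 6 libraries were PINX1 (ENSG00000254093, one of several rows of that name), SNRPD1, DSN1 and HMGB1, with Pearson correlations of 0.998, 0.996, 0.995 and 0.995. SNRPD1 encodes a core protein of the spliceosome, DSN1 a kinetochore protein and HMGB1 an abundant chromatin protein. HMGB1 had 692, 420, 329 and 597 TPM in shLAMP5 1 to 4, against 839 and 883 TPM in shNT 1 and 2. As with TFRC, the lowest library was shLAMP5 3, then shLAMP5 2, and both shNT libraries were highest.

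**Figure D2:**
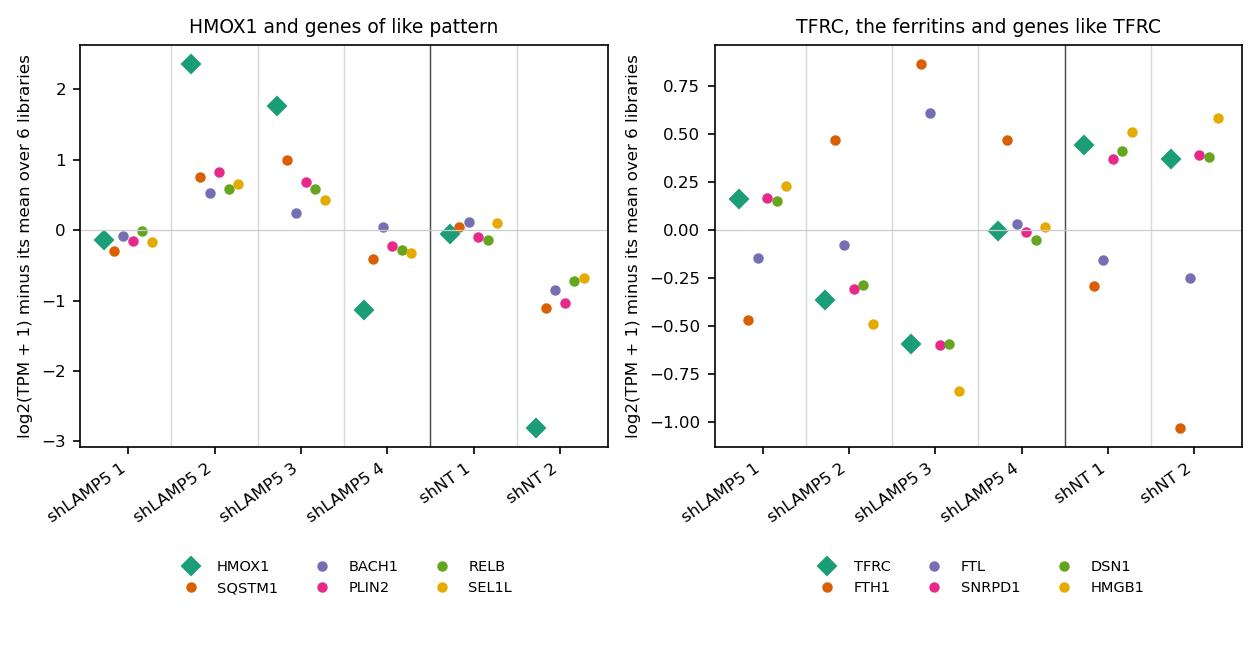
Log2(TPM + 1) of single genes in each library, as the difference from the gene's own mean over the 6 libraries; shLAMP5 libraries stand left of the dark line and shNT libraries right of it. The left panel shows HMOX1 (diamonds) with SQSTM1, BACH1 and 3 of the 4 genes most like it, highest in shLAMP5 2 and 3 and lowest in shNT 2. The right panel shows TFRC (diamonds) with FTH1, FTL and 3 genes most like TFRC: in shLAMP5 3 the ferritin genes are at their highest and the others at their lowest.

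Of the NRF2 targets that serve antioxidant defence, OSGIN1 (ENSG00000140961), an oxidative stress-induced growth inhibitor, had the largest difference relative to its spread, at low levels. It had 3.39, 3.36, 2.93 and 1.97 TPM in shLAMP5 1 to 4, against 1.54 and 1.24 TPM in shNT 1 and 2. The groups did not overlap. The means were 2.91 ± 0.662 TPM in shLAMP5 (SD, n = 4) and 1.39 ± 0.213 TPM in shNT (SD, n = 2), a ratio of 2.09. The log2 difference between the groups was 0.70 (SE 0.25, 95% interval 0.13 to 1.26, limma p 0.0225, adjusted p 0.52), which understates the change of so low a gene, and the exact permutation p was 0.0667, the smallest possible. The value lay between 0.61 and 0.82 when any 1 library was left out.

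GCLC and GCLM encode the catalytic and the modifier subunit of glutamate-cysteine ligase, which makes the rate-limiting step of glutathione synthesis. GCLC (ENSG00000001084) had 35.7, 33.3, 51.7 and 34.5 TPM in shLAMP5 1 to 4, against 30.8 and 31.5 TPM in shNT 1 and 2. The groups did not overlap, but 3 of the shLAMP5 libraries lay close to the shNT values and shLAMP5 3 stood apart; the log2 difference between the groups was 0.29 (SE 0.23, 95% interval -0.24 to 0.81, limma adjusted p 0.735) and 0.14 without shLAMP5 3. GCLM (ENSG00000023909) had 28.9, 20.1, 23.4 and 23.9 TPM in shLAMP5 1 to 4, against 21.1 and 22.2 TPM in shNT 1 and 2. Its groups overlapped, with shLAMP5 2 lowest of all and shLAMP5 1 highest (log2 fold change 0.14, 95% interval -0.33 to 0.61, limma adjusted p 0.877). After median scaling or quantile normalization the GCLM groups did not overlap, at log2 fold changes of 0.17 and 0.16.

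The subunits did not keep 1 order of libraries. GCLC was 1.24, 1.66, 2.21 and 1.44 times as abundant as GCLM in shLAMP5 1 to 4, against 1.46 and 1.42 times in shNT 1 and 2, so that the shLAMP5 ratios ran from below to above the shNT ones.

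NQO1 (ENSG00000181019), the quinone reductase often used as a readout of NRF2, had 11.9, 13.2, 14.9 and 17.1 TPM in shLAMP5 1 to 4, against 10.8 and 14 TPM in shNT 1 and 2. The groups overlapped, with shLAMP5 4 highest and shNT 1 lowest. The log2 difference between the groups was 0.19 (SE 0.22, 95% interval -0.31 to 0.70, limma adjusted p 0.824). TXNRD1 (ENSG00000198431), the cytosolic thioredoxin reductase, had 138, 129, 144 and 141 TPM in shLAMP5 1 to 4, against 144 and 124 TPM in shNT 1 and 2. It was the steadiest member in TPM without scaling: all 6 libraries lay within 1.17-fold. Its SD within groups (0.0975, log2) was smaller than in nearly all other genes, with 3.22% of genes below it. After median scaling, which raises shLAMP5 2, the TXNRD1 libraries spread wider. The log2 fold change without scaling was 0.05 (95% interval -0.35 to 0.45, limma adjusted p 0.958). The interval includes differences in either direction, so equality is not shown.

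The other members did not share 1 order of libraries with HMOX1. In TPM without scaling, shLAMP5 2, which had the highest HMOX1, had the lowest GCLM and, within shLAMP5, the lowest GCLC and TXNRD1. After median scaling, which raises all values of shLAMP5 2, that library was not lowest in any of these genes and was highest in TXNRD1. Library shLAMP5 4, lowest in HMOX1 among the shLAMP5 libraries, had the highest NQO1. shLAMP5 3, with the second-highest HMOX1, had the highest GCLC, FTH1 and FTL and one of the highest TXNRD1 levels, and OSGIN1 was high in shLAMP5 1 and 2. By mean level in TPM, a scale per length, the order in shLAMP5 was FTL, FTH1, HMOX1, TXNRD1, TFRC, GCLC, GCLM, NQO1 and OSGIN1. In shNT it was FTL, FTH1, TFRC, TXNRD1, HMOX1, GCLC, GCLM, NQO1 and OSGIN1. In shLAMP5, HMOX1 was above each of TXNRD1, TFRC and GCLC in some libraries and below it in others. In shNT it lay below TXNRD1 and TFRC in both libraries. It was above GCLC, GCLM and NQO1 in shNT 1 and below them in shNT 2, so its place against these is one of means only. TFRC and TXNRD1 overlapped in shNT.

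**Figure D3:**
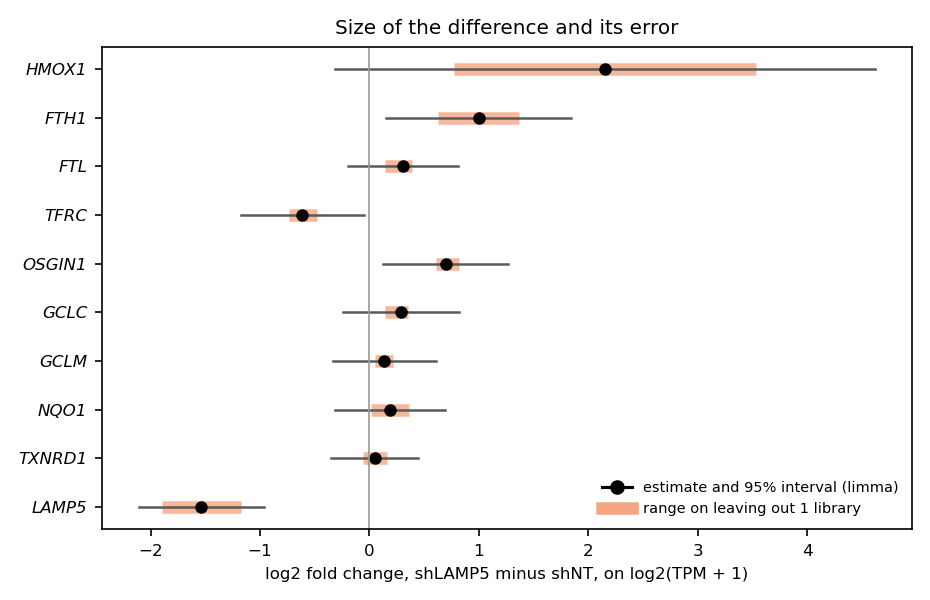
Log2 fold change of each gene, shLAMP5 minus shNT, on log2(TPM + 1) (points), with the 95% interval from limma (lines) and the range over the fits that leave out 1 library (bars). The interval of HMOX1, -0.32 to 4.62, is the widest; those of FTH1, OSGIN1, TFRC and LAMP5 do not include 0 before adjustment for the number of genes tested.

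Among the regulators of the pathway, NFE2L2, which encodes NRF2, had 49.9, 57.6, 60.7 and 59.0 TPM in shLAMP5 1 to 4, against 62.6 and 45.7 TPM in shNT 1 and 2 (log2 fold change 0.08, limma adjusted p 0.934). KEAP1, its inhibitor, had 36.2, 22.9, 39.3 and 32.6 TPM in shLAMP5, against 34.6 and 37.0 TPM in shNT (log2 fold change -0.15, adjusted p 0.887). Both overlapped between the groups, and KEAP1 was lowest in shLAMP5 2. BACH1, the haem-sensing repressor, had 12, 19.0, 15.3 and 13.3 TPM in shLAMP5 1 to 4, against 13.9 and 6.64 TPM in shNT 1 and 2 (log2 fold change 0.56, limma adjusted p 0.614). Its lowest library was shNT 2 and its highest shLAMP5 2, as for HMOX1, and the fold change was 0.08 without shNT 2 and 1.04 without shNT 1.

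SQSTM1, a selective autophagy receptor that competes with NRF2 for KEAP1 and is also an NRF2 target, had 204, 423, 501 and 187 TPM in shLAMP5 1 to 4, against 257 and 115 TPM in shNT 1 and 2 (log2 fold change 0.80, limma adjusted p 0.655). High libraries were again shLAMP5 2 and 3, and the groups overlapped; the value was 0.22 without shNT 2 and 1.38 without shNT 1. PGAM5, a mitochondrial phosphatase that binds KEAP1, had 53.5, 30.7, 36.4 and 51.3 TPM in shLAMP5, against 63.4 and 74.7 TPM in shNT (log2 fold change -0.70, adjusted p 0.527), and RBX1, the ring subunit of the ligase that degrades NRF2, had a difference of -0.30 (log2, adjusted p 0.68). Of 13 regulators tested, 0 passed the adjusted threshold and the median log2 fold change was 0.005. In all shLAMP5 libraries, 0 lay above (8.25% over all genes tested) and 2, PGAM5 and RBX1, below (13.5%).

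Other NRF2 targets were mixed. Of 20 tested out of 26 listed, 0 passed the adjusted test, 15 values were positive and 5 negative, and the median log2 fold change was 0.17. In all shLAMP5 libraries, 2 lay above (8.25% over all genes tested) and 2 below (13.5%). AKR1C1, an aldo-keto reductase, had 3.08, 2.76, 3.89 and 2.76 TPM in shLAMP5 1 to 4, against 1.54 and 1.56 TPM in shNT 1 and 2 (log2 fold change 0.68, limma adjusted p 0.505). AKR1C3 had 0.276 to 1.39 TPM in shLAMP5, against 0 and 0.204 TPM in shNT. It reached the filter of 1 TPM in 2 libraries only within shLAMP5. The filter therefore favoured its positive value and its place among the genes counted above. For both genes the groups did not overlap, but these genes belong to a family of near-identical copies between which reads may be split. In the other direction, TXN, the thioredoxin that TXNRD1 reduces, had 410, 302, 336 and 332 TPM in shLAMP5 1 to 4, against 456 and 457 TPM in shNT 1 and 2 (log2 fold change -0.41, adjusted p 0.554), and the peroxiredoxin PRDX1 had -0.28 (adjusted p 0.69).

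Antioxidant enzymes outside the NRF2 list had a median log2 fold change of 0.004, with 10 of 19 positive and 0 past the adjusted test. GLRX, the cytosolic glutaredoxin, had 64.2, 28.1, 71.1 and 62.5 TPM in shLAMP5 1 to 4, against 25.3 and 28.7 TPM in shNT 1 and 2 (log2 fold change 0.96, limma adjusted p 0.528). Library shLAMP5 2 lay within the shNT values before scaling and above them after median scaling, and the other 3 lay far above. GPX3, a secreted glutathione peroxidase, differed by 0.48 (log2), the mitochondrial glutaredoxin GLRX2 -0.49 and the superoxide dismutase SOD1 -0.37, each with overlapping groups.

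The NADPH oxidase is the source of superoxide in phagocytes. Each of its 6 subunits on the list had a positive log2 fold change (median 0.79). Of these, 2 lay above in all shLAMP5 libraries (8.25% over all genes tested), though 0 passed the adjusted test. NCF4 had 144, 130, 160 and 154 TPM in shLAMP5 1 to 4, against 95 and 101 TPM in shNT 1 and 2 (log2 fold change 0.57, limma adjusted p 0.505). NCF1 had 86.8, 105, 200 and 98.6 TPM in shLAMP5, against 76.1 and 43.5 TPM in shNT (log2 fold change 1.00, adjusted p 0.524), with reads that may be shared with its near-identical pseudogenes. The median of the list was 0.47 without shNT 2.

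Haem synthesis showed no common direction, with 5 of 8 enzymes positive, a median log2 fold change of 0.17 and 0 past the adjusted test. ALAD, an early enzyme of the pathway, had 36.4, 21.1, 32.3 and 39.4 TPM in shLAMP5 1 to 4, against 20.4 and 27.1 TPM in shNT 1 and 2 (log2 fold change 0.40, limma adjusted p 0.692). Its groups overlapped, with shNT 1 lowest and shLAMP5 4 highest. PPOX, which acts late in the pathway, had a difference of 0.18 without overlap, and UROS one of -0.12 with overlap. UROS had the opposite sign without shLAMP5 2 or without shNT 2.

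Among genes of haem breakdown and transport other than HMOX1, 5 of 9 were positive, with a median of 0.033 and 0 past the adjusted test. The biliverdin reductase BLVRA had a log2 fold change of -0.13. BLVRB had 30.3, 25.7, 30.4 and 30.8 TPM in shLAMP5 1 to 4, against 19.8 and 22.5 TPM in shNT 1 and 2 (log2 fold change 0.45, limma adjusted p 0.541). Its groups did not overlap. HMOX2, the constitutive haem oxygenase, had 8.19, 3.56, 4.93 and 12.7 TPM in shLAMP5, against 9.19 and 12.8 TPM in shNT (log2 fold change -0.64, adjusted p 0.682), and was lowest in shLAMP5 2 and 3, where HMOX1 was highest. SLC48A1, which carries haem out of lysosomes, differed by 0.63 (log2) and the haem exporter FLVCR1 by -0.56, with overlapping groups.

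Of the 12 tested genes of iron uptake, export and handling, 5 were positive and 7 negative, with a median of -0.10 and 0 past the adjusted test. In all shLAMP5 libraries, 1 lay above (8.25% over all genes tested) and 2 below (13.5%). SLC39A14, a carrier of zinc and of iron not bound to transferrin, had 48.0, 43.1, 29.3 and 40.9 TPM in shLAMP5 1 to 4, against 65.7 and 61.1 TPM in shNT 1 and 2 (log2 fold change -0.66, limma p 0.0221, adjusted p 0.52). As with TFRC, the groups did not overlap and shLAMP5 3 was lowest. SLC11A1, a metal transporter of phagosomes, had 2.54, 2.99, 5.32 and 2.82 TPM in shLAMP5, against 1.98 and 1.12 TPM in shNT (log2 fold change 0.77, adjusted p 0.531). MCOLN1, a lysosomal cation channel that passes iron, had 0.45 and the mitochondrial iron importer SLC25A28 -0.41, with overlapping groups; NCOA4, the ferritin autophagy receptor, was not matched to a row and was not analysed here.

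In iron sensing, 5 of 6 genes were positive (median 0.27) and 0 passed the adjusted test. IREB2, the iron regulatory protein that is degraded when iron is plentiful, had 45.1, 40.3, 62.0 and 51.0 TPM in shLAMP5 1 to 4, against 37.8 and 35.1 TPM in shNT 1 and 2 (log2 fold change 0.42, limma adjusted p 0.606), without overlap. ACO1, the other iron regulatory protein and a cytosolic aconitase, had a log2 fold change of 0.09, and FBXL5, the ligase subunit that degrades IREB2, 0.41, both with overlap; ACO1 had the opposite sign without shLAMP5 4 or without shNT 1. EPAS1, a hypoxia-inducible factor subunit, had 3.46, 4.38, 4.49 and 4.88 TPM in shLAMP5, against 2.44 and 1.84 TPM in shNT (log2 fold change 0.75, p 0.00843, limma adjusted p 0.505), without overlap, and HERC2 had -0.02.

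Iron-sulphur cluster assembly had 12 of 16 genes negative, a median of -0.16, 4 genes below in all shLAMP5 libraries (13.5% over all genes tested) and 0 past the adjusted test. HSPA9, a mitochondrial chaperone, had 273, 216, 221 and 276 TPM in shLAMP5 1 to 4, against 291 and 310 TPM in shNT 1 and 2 (log2 fold change -0.29, limma adjusted p 0.673). Its groups did not overlap, and shLAMP5 2 and 3 were lowest. MMS19 had a difference of 0.12 and NUBP1 one of 0.07, both with overlapping groups; MMS19 had the opposite sign without shNT 1.

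**Figure D4:**
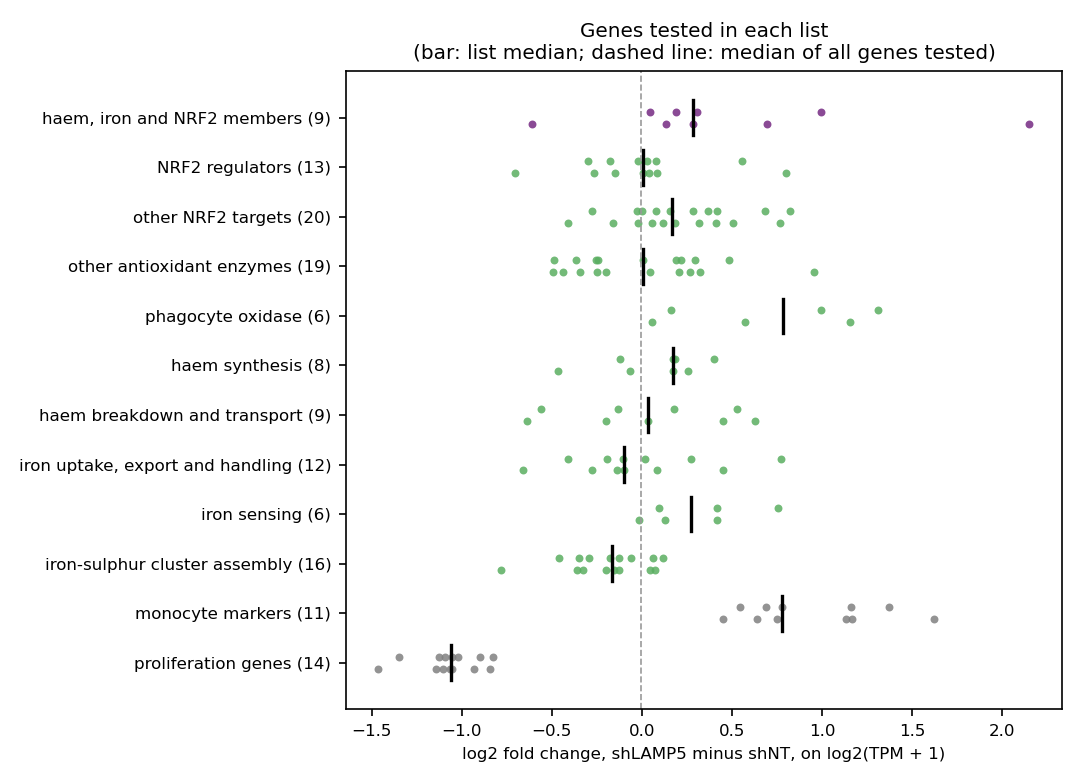
Log2 fold change (shLAMP5 minus shNT, on log2(TPM + 1)) of each tested gene in 12 lists, 1 point a gene, with the number tested in brackets, the list median as a black bar and the median of all genes tested, -0.006, as a dashed line. The haem, iron and NRF2 members spread from -0.61 (TFRC) to 2.15 (HMOX1); the phagocyte oxidase and monocyte markers lie right of 0 and the proliferation genes left of it.

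Monocyte markers are given here beside the ferritin and HMOX1 values. All 11 tested of 16 listed had positive log2 fold changes, with a median of 0.78 (1.16 without shLAMP5 2). Of these, 4 lay above in all shLAMP5 libraries (8.25% over all genes tested), and 0 passed the adjusted test. The markers not tested were MRC1, which was not matched to a row, and CD14, VCAN, FCN1 and CD163, which did not reach 1 TPM in 2 libraries. Of the latter, 2 were under 1 TPM in every library. Over the 15 markers with a row, tested or not, the mean log2(TPM + 1) was 4.86, 4.25, 5.37 and 5.09 in shLAMP5 1 to 4, against 4.20 and 4.20 in shNT 1 and 2. The summed level of these 15 was 1914 to 11214 TPM in shLAMP5 and 2449 to 6799 TPM in shNT. CD68 had 211, 107, 278 and 221 TPM in shLAMP5, against 85.2 and 85.2 TPM in shNT, and FCGR1A a log2 fold change of 0.75. In TPM without scaling, shLAMP5 2, which had the highest HMOX1 and an FTH1 level near that of shLAMP5 4, had a monocyte mean close to the shNT libraries. Median scaling raises all values of shLAMP5 2 (factor 0.8388) and lowers those of shLAMP5 4 (factor 1.053). It moves the FTH1 levels of these libraries apart, and the monocyte mean of shLAMP5 2 away from the shNT libraries. The part of monocytic differentiation in the HMOX1, ferritin and oxidase values was not tested. In a bulk sample, more cells of a type and more RNA per cell cannot be told apart.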

How the data were processed

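RNA was sequenced in 6 libraries, and the group of each came from its title: 4 shLAMP5 and 2 shNT. The authors deposited 1 table of Ensembl gene rows, whose values were read as TPM because they are fractional and sum to 897026 to 912565 per library; no header gives the unit. The tool kallisto and the build hg19 were used, per the submitters' processing notes, whereas version, transcript set and filters were not given there. Read numbers cannot be had from TPM, so depth is unknown and no counting interval is given.

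Symbols came from an Ensembl name table (35558 rows) and GENCODE 29 (118 rows). Genes that reached 1 TPM in 2 or more libraries were tested with limma 3.58.1 (R 4.3.3, mean-variance trend) on log2(TPM + 1), group as sole factor, Benjamini-Hochberg adjustment over all genes tested, threshold 0.05. Exact two-sided permutation tests ran on single genes over 15 divisions of the libraries. The script was tested on simulated data. Tables and figures were made with matplotlib 3.10.9, numpy 2.4.6 and pandas 2.3.3 under Python 3.11.15.

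The members and the 15 other gene lists were chosen with earlier results of these data known. Named genes were the members, LAMP5, the 2 genes with the smallest p in each direction from each list described, the 4 genes most like HMOX1 and TFRC, and 7 regulators (NFE2L2, KEAP1, BACH1, ACO1, IREB2, FBXL5 and NCOA4). CD33, SPI1 and FLT3 were picked as examples, and BLVRA was added, after their values were seen. Alternatives were other pseudocounts, filters, scalings, no trend, library weights, the title number as a block and leaving out each library. Leaving out shNT 1 and shLAMP5 2 together, adding pseudogene rows, and counts of non-overlapping genes under other settings were added after seeing the data. Some genes that these rules name are not reported here.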

Additional observations from a re-analysis of the deposited data

Results flagged for a closer look

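Among the 4 shLAMP5 libraries, 5 of 63 genes examined had 1 library far from the other 3 (a gap to the nearest library above Dixon's 95% critical value, as a share of the range), where chance flags about 1 in 20 groups. In shLAMP5 3, GCLC had 51.7 TPM against 33.3 to 35.7 TPM in the other shLAMP5 libraries, NCF1 had 200 TPM against 86.8 to 105 TPM, and SLC11A1 had 5.32 TPM against 2.54 to 2.99 TPM. In shLAMP5 2, BLVRB had 25.7 TPM against 30.3 to 30.8 TPM. After median scaling, BLVRB was no longer lowest in shLAMP5 2. In shLAMP5 1, GLRX2 had 36.1 TPM against 23.1 to 25 TPM. HMOX1 was not among them, since its values in shLAMP5 were spread without 1 isolated library.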

How the results depend on the processing

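Of the members, TXNRD1 was the only one to change sign under any alternative run (-0.063 without shNT 2). Leaving out 1 library at a time gave log2 fold changes of 0.77 to 3.53 for HMOX1, 0.63 to 1.37 for FTH1, 0.14 to 0.39 for FTL, -0.73 to -0.48 for TFRC, 0.61 to 0.82 for OSGIN1, 0.14 to 0.35 for GCLC, 0.05 to 0.22 for GCLM, 0.02 to 0.37 for NQO1, -0.063 to 0.16 for TXNRD1 and -1.90 to -1.17 for LAMP5, with 0 genes called; a group left with 1 library was assumed to vary like the other. Genes past the adjusted threshold numbered 116 higher and 94 lower with library weights (LAMP5 among them, -1.40, adjusted p 0.0302), and 14 lower with no filter on low values. With the title number as a replicate block, 7 were higher, HMOX1 among them (2.55, adjusted p 0.00101), and 9 lower. That fit has 1 residual degree of freedom and used an SD of 0.502 for HMOX1, whose own was 2.63; its log2 difference was -0.08 for number 1 and 5.18 for number 2. Libraries of the same number deviated from their group means in opposite directions (correlations across genes -0.52 and -0.474). With 2 shNT libraries the shNT deviations mirror each other, so these correlations are not separate observations. The block changed no other member's call. Genes lying above in all shLAMP5 libraries numbered 1155 to 2870 when 1 library was left out (most without shLAMP5 2) and 4220 without shNT 1 and shLAMP5 2 together; those below numbered 2040 to 3296 (most without shNT 1) and 3753. Without both of these libraries, 7 members lay above and 1 below. Median scaling moved the median of all genes by 0.03; with it FTL overlapped between the groups and GCLM did not. With quantile normalization FTL overlapped (0.04), while GCLM and FTH1 (1.09) did not. Other named genes changed sign when 1 library was left out, with ranges of -0.325 to 0.081 for UROS, -0.193 to 0.159 for HERC2, -0.039 to 0.269 for MMS19, -0.142 to 0.302 for NFE2L2, -0.245 to 0.006 for KEAP1 and -0.110 to 0.298 for ACO1. UROS (0.154) and HERC2 (0.132) also did so with library weights, NUBP1 (-0.073) and ACO1 (-0.086) with the replicate block, and MMS19 (-0.124) without shNT 1 and shLAMP5 2 together. The cause of these shifts was not tested.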
